A study of Arabidopsis thaliana with 8 samples.

Results

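The sites described here are places in the Arabidopsis thaliana genome that were bound by ARR12-GFP in root apical meristems and that lay more than 500 and at most 1500 bp outside the nearest protein-coding gene. They were chosen by the presence and position of called summits, with no limit set on score. Summits of both ARR12-GFP ChIP libraries were linked within 200 bp, those with a control summit of either replicate at 200 bp or less were dropped, and the midpoint of the best summit of each library was taken as the position, given below in TAIR10 coordinates. Of 3503 reproducible sites, 843 (24.1%, exact 95% interval 22.7 to 25.5) met the distance rule. The others were 1026 sites inside protein-coding genes, 1124 sites 1 to 500 bp outside them and 510 sites beyond 1500 bp.

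The study used seedlings of ecotype Col-0, taken 3 days post germination after 5 days of stratification and growth at 22 °C in long days, and each of its 2 genotypes had 2 anti-GFP libraries from independent biological replicates. One genotype carried ARR12-GFP. The other was Col-0 without a named transgene according to the design text, although its sample titles read GFP, and it is called Col-0 here. The promoter that drives ARR12-GFP, the number of transgenic lines and the state of the endogenous ARR12 gene were not found in the labels. Chromatin came from fixed root meristem tissue, so signals of its different cell types cannot be told apart. The files used list 1 summit per called peak with a −log10 score, and they do not say whether it comes from p-values or q-values. Read depth is unknown from them, and scores are set side by side only within a library. Sites of a joined list are not replicates of a condition, so differences between position classes are given as descriptions, in both libraries and with no test. The 95% intervals are exact (Clopper-Pearson) and reflect no error other than counting.

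ARR12 is a B-type response regulator. Cytokinin binds histidine kinase receptors, phosphotransfer proteins carry the phosphate to the nucleus, and B-type regulators activated by it bind DNA through a Myb-like domain and switch on target genes. A-type regulators, which lack that domain, are among the earliest targets and dampen the signal. In the root, cytokinin acting through ARR1 and ARR12 limits the size of the meristem and promotes the change from division to differentiation, in part by opposing auxin. Regulatory DNA of Arabidopsis is mostly compact, and stretches farther from a gene may belong to its outer promoter, to the region past its end or to a neighbouring gene.

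The window from over 500 to 1500 bp made up 11.6% of the nuclear bases covered by the gene table and held 24.1% of the sites. This came to 61.0 sites per megabase, against 71.3 at 1 to 500 bp, 20.4 beyond 1500 bp and 15.9 inside genes. In single libraries the window held 1902 summits of ARR12-GFP replicate 1 and 1166 of replicate 2, against 27 and 36 in the Col-0 libraries. ARR12-GFP thus averaged 1534 ± 520.4 summits in the window (SD, n = 2). Col-0 averaged 31.5 ± 6.36 (SD, n = 2). The ratio was 48.7, and the groups did not overlap. An exact two-sided permutation test of the 4 libraries gave p = 0.333, the smallest that 2 against 2 can give. As a share of each library's nuclear summits, the window held 23.4% and 21.2% in ARR12-GFP and 13.6% and 14.3% in Col-0 (exact permutation p = 0.333).

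**Figure D1:**
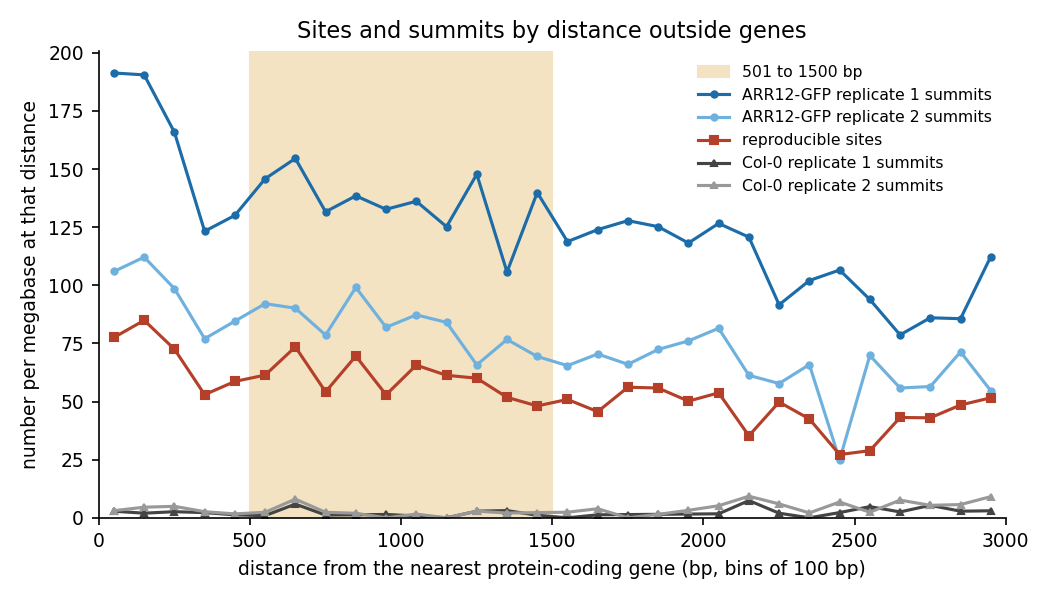
Number of reproducible sites and of summits in each library per megabase of sequence (y axis) at each distance from the nearest protein-coding gene (x axis, bins of 100 bp), with the window from over 500 to 1500 bp shaded. Site density was 77.6 per megabase in the first 100 bp, between 48.1 and 73.5 within the window, and the Col-0 lines stayed below 10 at each distance shown.

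Within the window the number of sites fell with distance, but so did the sequence available. In successive steps of 250 bp outward there were 310, 225, 186 and 122 sites. Per megabase, the bins of 100 bp ranged from 48.1 in the outermost bin to 73.5 in the bin that ends at 700 bp. The site nearest to the inner limit lay 502 bp from PDCB4 (AT1G69295) and scored 8.53 in replicate 1 and 3.71 in replicate 2. The nearest one left out lay 500 bp from AT1G49360 with 8.43 and 4.22. At the outer limit a site 1495 bp from AT5G05140 scored 8.19 and 6.34, and one left out at 1502 bp from FAF3 (AT5G19260) scored 4.002 and 6.52.

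The distance rule itself sets a minimum size for the space between genes that holds a site, and a higher one for the class beyond 1500 bp, so the sizes of these spaces are given as a description. The space between the 2 flanking protein-coding genes had a median of 3319 bp (quartiles 2310 and 4902), against 1663 bp around sites at 1 to 500 bp and 6565 bp around those beyond 1500 bp. The gene on the other side lay at a median of 2355 bp, and for 226 of the 843 sites (26.8%) it too was within 1500 bp, so that the nearest gene is one of a pair of candidates there. Among spaces of like size, the densities at 1 to 500 bp and in the window were close in smaller spaces and farther apart in larger ones. In spaces over 1000 and up to 2000 bp they were 69.9 and 71.4 sites per megabase, and in spaces up to 4000 bp 74.0 and 66.4. In spaces up to 8000 bp the densities were 85.8 at 1 to 500 bp, 61.5 in the window and 58.2 beyond it. Above 8000 bp they were 52.2, 33.6 and 9.63.

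Taken over all sites of a position class, median scores were higher with distance from genes in both libraries. In replicate 1 the window's sites scored between 3.6 and 136.7 with a median of 19.3 (quartiles 11.8 and 32.1). The medians of the other classes were 13.0 inside genes, 15.7 at 1 to 500 bp and 21.1 beyond 1500 bp. In replicate 2 the sites scored between 2.12 and 60.3 with a median of 8.92 (quartiles 6.15 and 14.2), against 8.24 inside genes, 8.45 at 1 to 500 bp and 9.11 beyond. The order of the 4 classes was therefore alike in the libraries, while the quartiles overlapped widely in each. Within spaces of like size the window's median in replicate 1 exceeded that at 1 to 500 bp in each of the 4 size ranges, by the least in spaces over 2000 and up to 4000 bp (19.8 and 18.4) and by the most above 8000 bp (21.6 and 15.2). In replicate 2 the medians were 8.34 and 7.79 in spaces over 1000 and up to 2000 bp, 9.01 in both positions up to 4000 bp, 9.08 and 8.09 up to 8000 bp, and 9.60 and 8.07 above that. Sites beyond 1500 bp had replicate 1 medians of 22.8, 20.4 and 21.7 in spaces up to 4000, up to 8000 and above 8000 bp. Each was above the window's median. In replicate 2 they were 8.69, 9.07 and 9.55, each slightly below the window's, so the rise past 1500 bp was not seen there. Inside the window there was no steady rise, with medians in replicate 1 of 17.9, 20.6, 17.7 and 21.2 in successive steps of 250 bp.

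**Figure D2:**
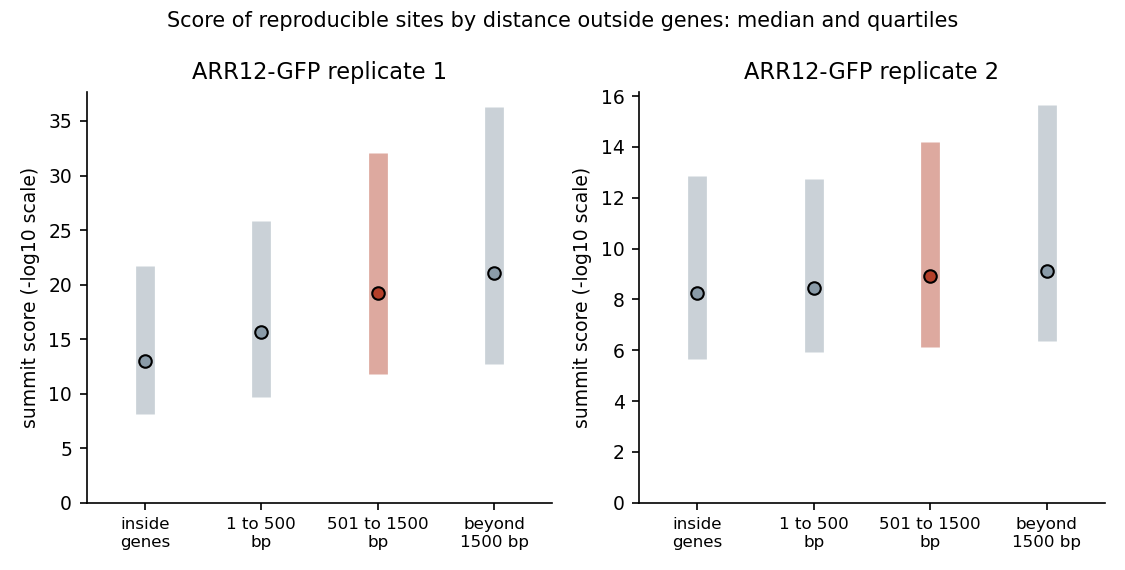
Median (point) and quartiles (bar) of the authors' summit score, on a −log10 scale, of reproducible sites in each position class, for ARR12-GFP replicate 1 (left) and replicate 2 (right). The sites of the window, in red, had medians of 19.3 and 8.92, above the 2 classes nearer to or inside genes, with overlapping quartiles.

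The rule asked for summits linked within 200 bp, and the best summits of the libraries lay a median of 47 bp apart, and 443 of the 843 pairs (52.6%) lay within 50 bp. Across the 843 sites the scores of the libraries had a Spearman coefficient of 0.68, against 0.56 inside genes, 0.62 at 1 to 500 bp and 0.74 beyond 1500 bp, over 1026, 1124 and 510 sites that all come from the same pair of libraries. In 255 sites (30.2%) both summits ranked at or above the 75th percentile of their list, and the share over all reproducible sites was 26.1%. Of the 10% of reproducible sites with the highest mean score percentile, 104 of 351 (29.6%, 24.9 to 34.7) were in the window, and of the lowest 10% 63 of 351 (17.9%, 14.1 to 22.4). The same shares were 24.2% and 10.3% beyond 1500 bp, 25.1% and 31.9% at 1 to 500 bp, and 21.1% and 39.9% inside genes. The larger share among high scores was therefore not particular to the window.

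Not every summit of the window was found in both libraries. Of the replicate 1 summits there, 857 of 1902 (45.1%, 42.8 to 47.3) had a replicate 2 summit within 200 bp. The shares were 42.9% of summits inside genes, 45.1% of those at 1 to 500 bp and 41.8% of those beyond 1500 bp. Of the replicate 2 summits in the window, 868 of 1166 (74.4%, 71.8 to 76.9) had one in replicate 1. The shares were 52.0% (49.8 to 54.1) inside genes, 72.2% at 1 to 500 bp and 72.7% beyond 1500 bp. The chance of being found again followed the score: in the window it was 12.6% in the lowest score quartile of replicate 1 and 80.8% in the highest. In replicate 2 it was 58.9% and 87.4%. In each score quartile of replicate 1 the window's share was below that inside genes, which was 19.4% in the lowest and 85.8% in the highest. In each quartile of replicate 2 the window's share was above that inside genes (34.4% and 73.7%).

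**Figure D3:**
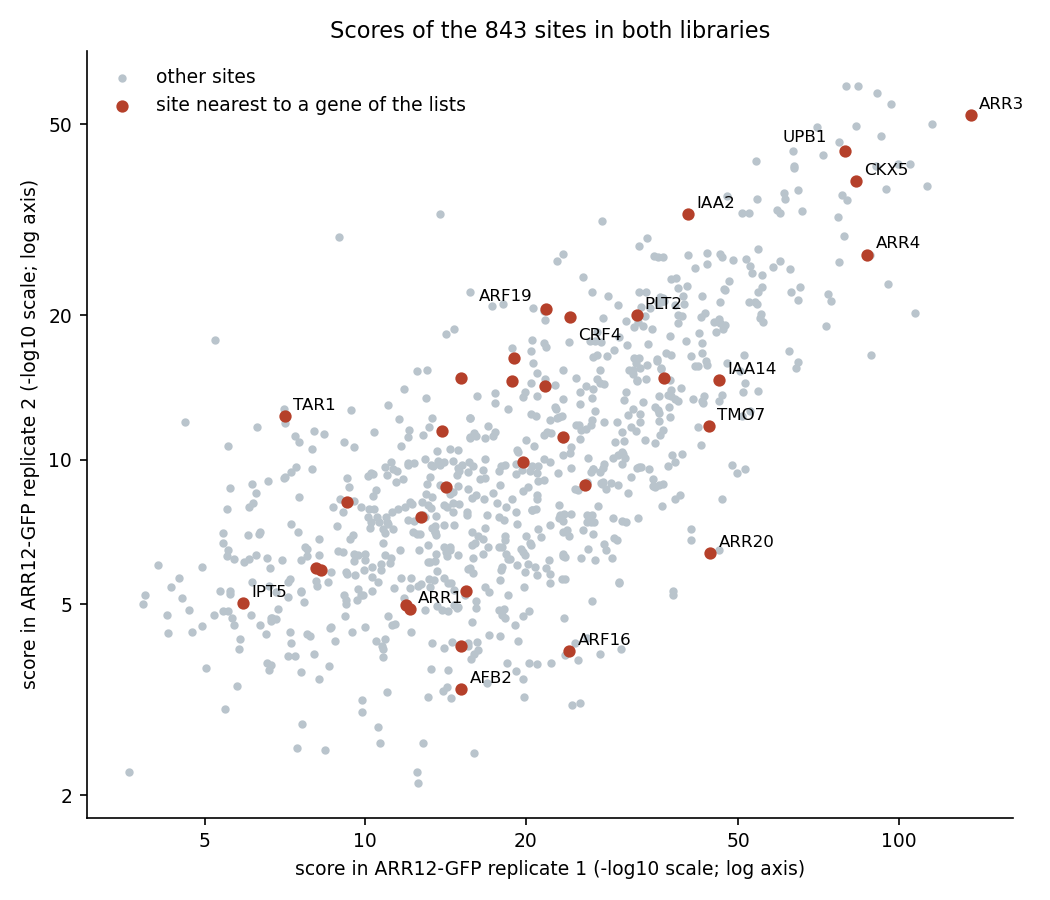
Score of each of the 843 sites in ARR12-GFP replicate 1 (x axis) and replicate 2 (y axis), both on log axes. The 33 sites whose nearest gene belongs to a hormone, root or growth list are red, some with the gene's name, and their scores ran from 5.89 to 136.7 in replicate 1 and from 3.33 to 52.2 in replicate 2.

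The 843 sites had 818 nearest genes, 2.98% of the 27444 nuclear protein-coding genes. Their median length was 2266 bp, against 2078 bp over all of these genes. Of the 818 genes, 240 (29.3%) had a further reproducible site of another class for which they were the nearest gene, 126 of them inside the gene and 82 at 1 to 500 bp. By chromosome, the window held between 22.9% of sites on chromosome 2 and 27.5% on chromosome 4, with overlapping intervals. Of the 259 genes on 17 lists of hormone, root, growth and contrast genes, 31 (12.0%) were nearest to a site in the window, and 33 sites belonged to them. These sites had median scores of 19.7 in replicate 1 and 11.5 in replicate 2, against 19.3 and 8.92 over the window. The lists were chosen with earlier results of these data known, so the 12.0% is a description only. Counting sites of any position class, 10.5% of all protein-coding genes were nearest genes. By list that share ran from 0% (leaf photosynthesis) to 66.7% (cytokinin response factors), and it was 58.3% for the housekeeping genes.

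Along the cytokinin pathway, the receptors and phosphotransfer proteins gave no nearest gene out of 10, with an upper limit of 30.8%. Counting sites of any position class, 3 of the 10 were nearest genes, against 10.5% of all protein-coding genes. The receptor gene AHK4 (AT2G01830) was the farther neighbour of a site at position 361724 of chromosome 2, 1259 bp away, with scores of 15.0 and 8.10, while the nearest gene to it was AT2G01820 at 800 bp. Counting each gene within 1500 bp on either side, 3.87% of all protein-coding genes had a site of the window, and 1 of the 10 genes of this list did.

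The B-type regulators, to which ARR12 belongs, gave 2 nearest genes of 11. Counting any position class, the number was also 2 of 11 (10.5% of all genes). ARR1 (AT3G16857), which acts with ARR12 in the root meristem, had a site 1150 bp away at position 5754564 of chromosome 3, with modest scores of 12.1 and 4.88. ARR20 (AT3G62670) had a site 1088 bp away that scored 44.4 in replicate 1 and 6.38 in replicate 2, the 95.6th and 38.3rd percentile of their lists. A second site of the window, with scores of 32.6 and 9.67, lay on the other side of ARR20 at 949 bp, nearer to GATL7 (AT3G62660) at 614 bp. Both sites ranked higher in replicate 1 than in replicate 2, that of ARR1 at the 59.1st and 19.97th percentile.

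The A-type regulators, early targets that restrain the cytokinin signal, gave 2 nearest genes of 10, ARR3 and ARR4, and 6 of 10 counting sites of any position class (10.5% of all genes). The site 901 bp from ARR3 (AT1G59940), at position 22064716 of chromosome 1, ranked first of the 843 sites by mean percentile, with 136.7 in replicate 1 and 52.2 in replicate 2 and summits 2 bp apart. It was the only reproducible site for which ARR3 was the nearest gene. ARR4 (AT1G10470) had a site on each side. The one at 3444863 of chromosome 1, 503 bp away, scored 87.3 and 26.8, and the other, at 3440927 and 1061 bp away, scored 107.2 and 20.2 but was nearer to GLP7 (AT1G10460) at 568 bp. A weaker site lay inside ARR4, with scores of 25.6 and 5.995. Both flanking sites of ARR4 outscored that inner site in each library. Because it lay so near to the inner limit, the ARR4 site at 503 bp fell out of the window when the position of the replicate 1 summit was used.

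Genes of cytokinin synthesis gave 1 nearest gene of 18 and those of breakdown, conjugation and transport 1 of 13. Counting any position class, these lists gave 2 of 18 and 5 of 13 (10.5% of all genes). IPT5 (AT5G19040), which makes the cytokinin precursor, had the lowest-ranked site among all list genes, 1069 bp away with 5.89 and 5.03. A site inside IPT5 scored 13.1 and 4.52. CKX5 (AT1G75450), a cytokinin oxidase that degrades the hormone, had one of the highest, 698 bp away at 28319073 of chromosome 1 with 83.1 and 38.0. Inside CKX5 lay 2 further sites, of 18.6 and 4.84 and of 7.18 and 8.80. LOG8 (AT5G11950), which activates cytokinin, was the farther neighbour of a site at 1039 bp with scores of 10.2 and 7.41. The cytokinin response factors, AP2/ERF transcription factors acting in parallel with the B-type regulators, gave 2 of 6. Counting any position class they gave 4 of 6. CRF4 (AT4G27950) had a site at 559 bp with 24.2 and 19.8, and CRF2 (AT4G23750) one at 675 bp with 15.1 and 4.10 beside another inside the gene.

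**Figure D4:**
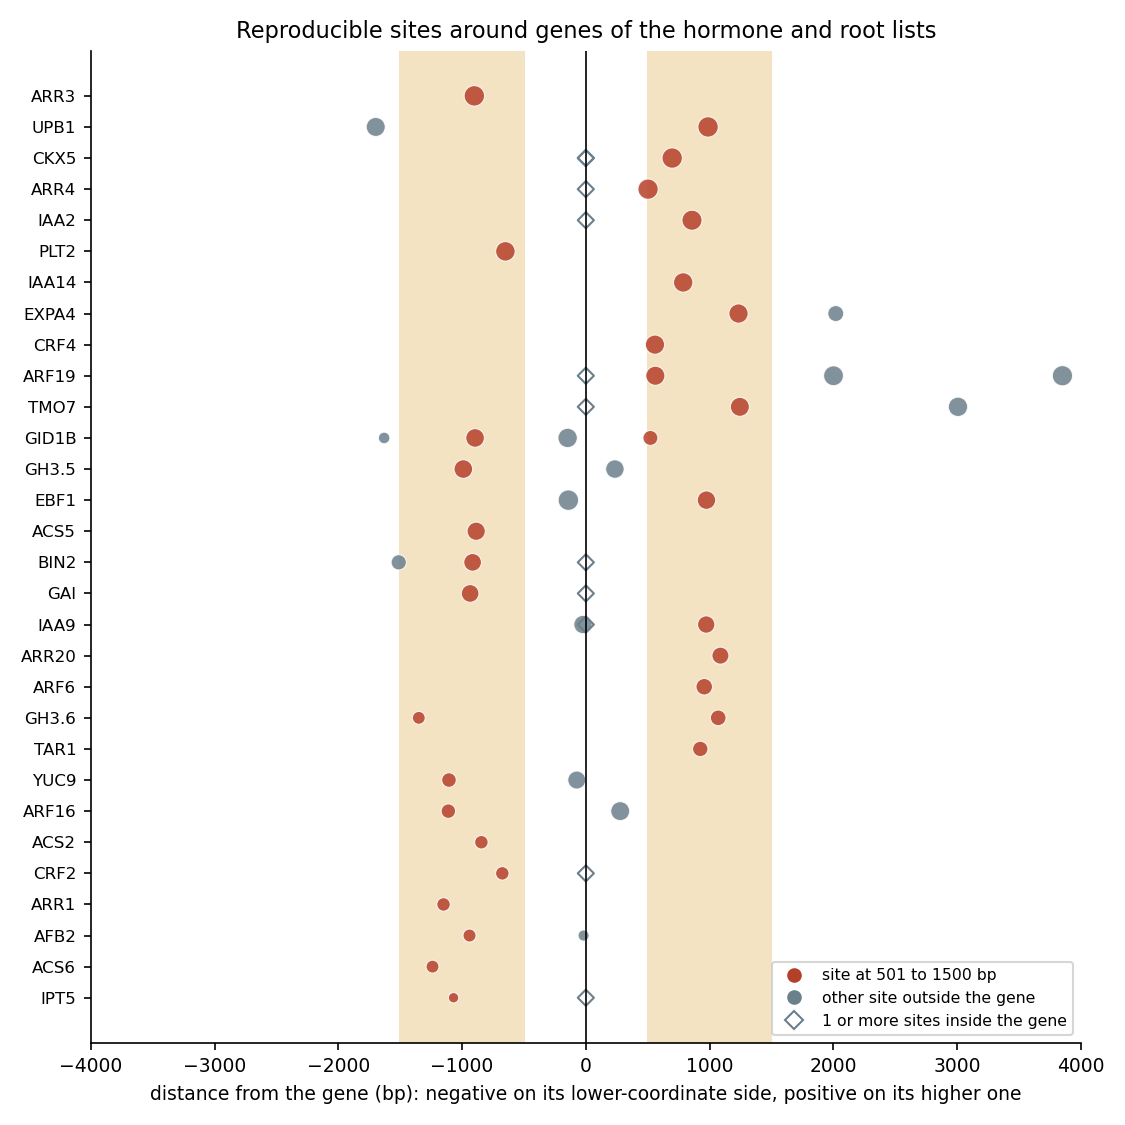
Reproducible sites around 30 of the 31 list genes that were nearest to a site in the window. The x axis gives the distance outside the gene on its lower- and higher-coordinate side, diamonds mark sites inside the gene, point size grows with the mean score percentile, and genes are ordered by their highest-ranked red site. Only sites with that gene as nearest gene are drawn. ARR3 had 1 red site and no other, whereas GID1B and ARF19 had 4 sites each.

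Among auxin genes, 3 of the 29 Aux/IAA repressors, which block auxin response until the receptor triggers their breakdown, had a site in the window. Counting any position class, 12 of the 29 were nearest genes. Over all protein-coding genes the shares were 2.98% in the window and 10.5% for any class. IAA2 (AT3G23030) had one at 858 bp with 40.3 and 32.5, above the scores of 31.4 and 23.4 of a site inside the same gene. IAA14 (AT4G14550), known for its part in lateral root formation, had one at 787 bp with 46.0 and 14.7. IAA9 (AT5G65670) had one at 973 bp with 13.9 and 11.5, in addition to a site 23 bp from the gene and one inside it. A site of 16.8 and 5.42 between MPI7 (AT1G04260) at 695 bp and IAA17 (AT1G04250) at 920 bp was also in the window.

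Of the auxin receptors and response factors, 4 of 18 were nearest genes (2.98% of all genes). Counting any position class, 9 of 18 were (10.5% of all genes). AFB2 (AT3G26810), an auxin receptor, had a site at 940 bp that scored 15.1 and only 3.33, the 3.41st percentile of replicate 2, and a weaker one in replicate 1 at 18 bp with 8.07 and 4.24. ARF19 (AT1G19220), an activator of auxin-responsive genes, had a row of sites on one side whose scores were higher with distance: 21.8 and 20.6 at 562 bp, 37.6 and 23.98 at 2002 bp, and 64.1 and 29.5 at 3852 bp. The site 957 bp from ARF6 (AT1G30330) scored 14.2 and 8.77. ARF16 (AT4G30080), a repressing factor of the root cap, had one at 1111 bp with 24.1 and 3.98. A stronger one lay on its other side at 278 bp, with 35.8 and 12.7. The ARF16 site at 1111 bp joined summits 166 bp apart and was lost when summits had to lie within 100 bp.

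In auxin synthesis and inactivation 4 of 23 were nearest genes (2.98% of all genes). Counting any position class, 9 of 23 were (10.5% of all genes). YUC9 (AT1G04180) and TAR1 (AT1G23320), of the main synthesis route, had sites at 1106 bp with 15.4 and 5.32 and at 925 bp with 7.07 and 12.3. The conjugating enzyme genes GH3.5 (AT4G27260) and GH3.6 (AT5G54510) had them at 990 bp with 21.7 and 14.2, and at 1070 and 1350 bp on opposite sides with 12.7 and 7.59 and with 8.08 and 5.96. Further sites outside the window lay 73 bp from YUC9, with 20.2 and 11.1, and 235 bp from GH3.5, with 25.4 and 11.7. GH3.2 (AT4G37390) was the farther neighbour of a site at 1225 bp that scored 24.2 and 10.3.

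Root meristem regulators gave 3 nearest genes of 25 (2.98% of all genes), and 5 of 25 counting any position class (10.5% of all genes). UPB1 (AT2G47270), a bHLH factor that sets the balance of reactive oxygen between dividing and elongating cells, had a site at 988 bp, position 19413316 of chromosome 2, with 79.2 and 44.1. On its other side lay a site at 1698 bp with 40.1 and 12.4. PLT2 (AT1G51190), which maintains stem cells and division, had a single site, 650 bp away with 32.2 and 20.01. TMO7 (AT1G74500), a small mobile bHLH protein, had one at 1245 bp with 44.0 and 11.8, another at 3008 bp with 40.5 and 14.9, and a weak one inside the gene with 8.16 and 4.91. SCR (AT3G54220), which specifies the endodermis and quiescent centre, was the farther neighbour of a site at 749 bp scoring 14.2 and 3.37. In replicate 2 the sites beside UPB1 and PLT2 stood at the 99.1st and 90.6th percentile of the list and the one beside SCR at the 3.58th.

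Genes of 3 further hormones were also present. Counting any position class, 8 of 21 ethylene genes were nearest genes (10.5% of all genes). In the window 4 of 21 were nearest genes (2.98% of all genes). They were EBF1 (AT2G25490), whose product removes the ethylene transcription factor EIN3, with a site at 975 bp of 18.8 and 14.6, and the synthesis genes ACS2, ACS5 and ACS6 at 844, 886 and 1239 bp. The EBF1 site was weak beside another one 141 bp from the gene that scored 128.1 and 84.2. ACS5 (AT5G65800) scored 23.5 and 11.1, ACS2 (AT1G01480) 11.9 and 4.99, and ACS6 (AT4G11280) 8.26 and 5.89. The gibberellin list gave 2 of 14, the receptor gene GID1B (AT3G63010) with sites at 895 and 522 bp on opposite sides and the DELLA repressor gene GAI (AT1G14920) at 935 bp with 19.7 and 9.90. Around GID1B the scores were 19.0 and 16.3 at 895 bp, 9.25 and 8.16 at 522 bp, 32.5 and 17.1 at 147 bp, and 8.38 and 4.45 at 1630 bp. The brassinosteroid list gave 1 of 9, the kinase gene BIN2 (AT4G18710) with 25.8 and 8.84 at 915 bp. Expansins with proton pumps gave 1 of 16, EXPA4 (AT2G39700) with 36.4 and 14.8 at 1234 bp. Sites inside the gene scored 12.3 and 5.30 in GAI, and 20.9 and 14.7 in BIN2. BIN2 had another at 1512 bp with 12.9 and 6.86, and EXPA4 one at 2020 bp with 18.2 and 6.60. Counting any position class, the gibberellin, brassinosteroid and expansin lists gave 4 of 14, 5 of 9 and 8 of 16.

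The contrast lists held no nearest gene. Of 12 housekeeping genes 0 had a site in the window (upper limit 26.5%), although 7 of the 12 were nearest to a reproducible site of another class. Of 12 leaf photosynthesis genes 0 had a site in the window and 0 had one of any class. That upper limit lies above the share found in each other list except the cytokinin response factors.

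**Figure D5:**
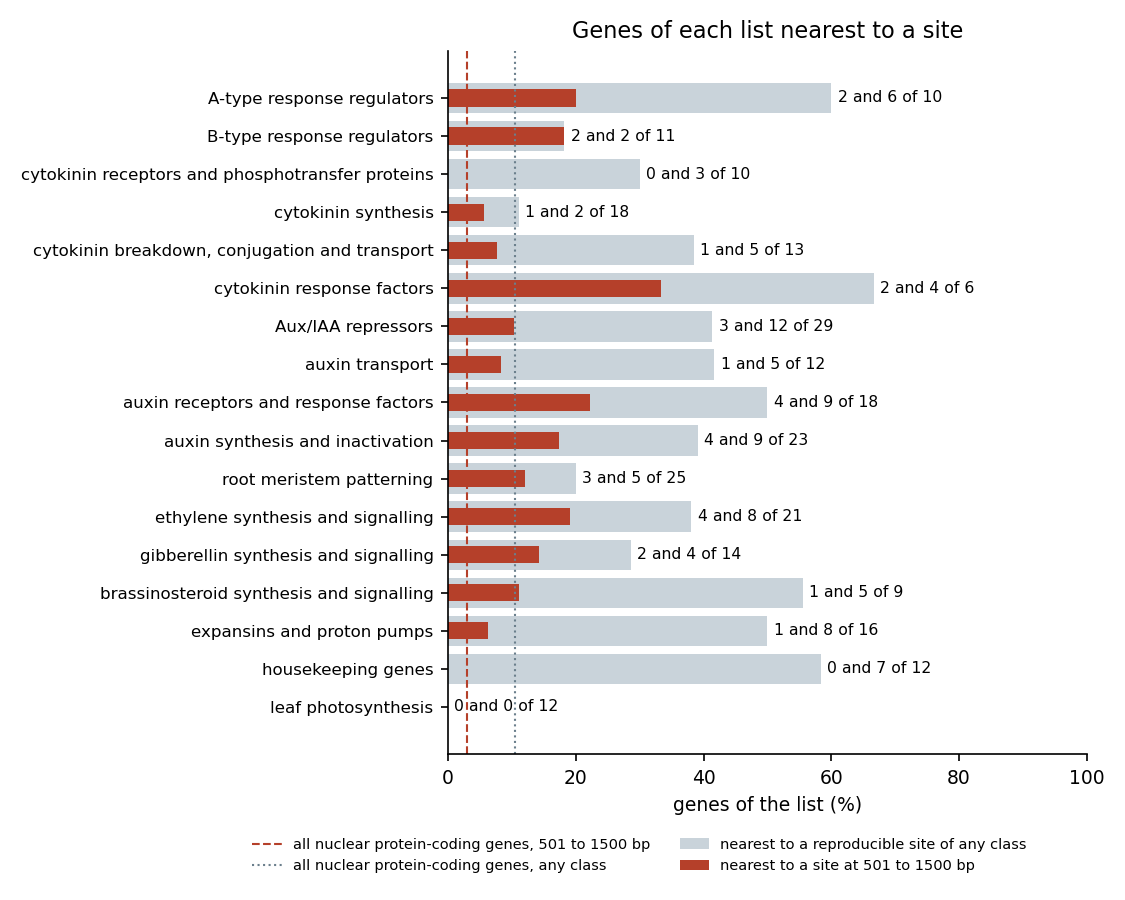
Share of each list's genes (x axis, percent) that were nearest to a site of the window (red) or to a reproducible site of any position class (grey), with both counts beside the bars. Dashed and dotted lines give the shares over all 27444 nuclear protein-coding genes, 2.98% and 10.5%. The red bars of 14 of the 17 lists reach past the dashed line, each from at most 4 genes. In lists of 6 to 29 genes, 1 nearest gene is enough to pass it. Passing the line therefore shows only that a list has a nearest gene.

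The 20 highest-ranked sites of the window scored between 63.5 and 136.7 in replicate 1 and between 35.7 and 60.3 in replicate 2. They lay on all 5 nuclear chromosomes, 531 to 1340 bp from 19 nearest genes. After ARR3, the second site lay 710 bp from AT5G27730 with 96.7 and 55.2, and 928 bp from a gene on the other side. The next was 1340 bp from HAT1 (AT4G17460), a homeodomain-leucine zipper transcription factor, at position 9738178 of chromosome 4 with 91.2 and 58.1. The site ranked next lay 742 bp from AT5G67390 with 115.5 and 50.1. WRKY22 (AT4G01250), a transcription factor of immune signalling, followed at 1090 bp with 83.9 and 60.1. AT3G20340 had a site at 859 bp with 79.5 and 60.3, the highest score of the window in replicate 2.

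Further down this ranking stood genes of various known roles. RPT2 (AT2G30520), a phototropism signalling protein, had a site at 619 bp with 99.6 and 41.4. NPY5 (AT4G37590), of the same protein family and active in auxin-dependent organ formation, had one at 531 bp with 113.2 and 37.3. OFP15 (AT2G36050), an ovate family repressor, had one at 1217 bp with 72.1 and 43.1. RTFL2 (AT2G29125), which encodes a small peptide of the ROTUNDIFOLIA-like family, had one at 988 bp with 78.5 and 35.7. SHOT1 (AT3G60400), a mitochondrial protein, had one at 935 bp with 92.8 and 47.4, and BRG3 (AT3G12920), a RING-type protein, one at 808 bp with 105.2 and 41.5. UPB1 and CKX5, described above, ranked 11th and 18th. Sites with both scores this high therefore lay beside genes of many functions, and 8 of the 19 nearest genes had no symbol in the gene table.

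A pair of these top sites flanked AT5G48110. The site at 19499852 of chromosome 5 was 1136 bp away with scores of 83.3 and 49.6, and that at 19505743 was 1209 bp away with 70.3 and 49.5. The first one lay only 634 bp from a Col-0 replicate 1 summit and 300 bp from a Col-0 replicate 2 summit, just past the 200 bp at which sites were left out. Of all 843 sites, 5 had a Col-0 summit of either replicate within 1000 bp, and 13 further sites of the window had been removed by the 200 bp rule.

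In all, 25 genes were nearest to 2 sites of the window and none to more. In 20 of them 1 site lay on each side of the gene. The width of the window limits how far apart a pair on the same side can lie. A strong flanking pair besides that of AT5G48110 surrounded AT4G25410, with 94.7 and 36.6 at 841 bp and 52.5 and 32.7 at 859 bp. BRG3 had its second site at 1038 bp with 39.4 and 21.9. EXO (AT4G08950), a brassinosteroid-induced growth gene, had 41.6 and 25.1 at 1229 bp and 13.8 and 9.77 at 607 bp. The transcription factor genes HB5 (AT5G65310) and MYB3 (AT1G22640) were flanked as well. HB5 had 34.8 and 26.5 at 1127 bp and 37.7 and 5.23 at 1080 bp, and MYB3 had 28.0 and 9.80 at 682 bp and 26.4 and 17.7 at 1421 bp. The pairs of a gene were often unequal: in AT5G49665 they scored 6.54 and 3.76 at 534 bp and 43.8 and 26.9 at 1399 bp. Other genes with a flanking pair included COL5, RAP2.4, bZIP44, MKK9 and RTFL8. On AT1G80500, AT2G17070, AT3G44710, GH9C3 and SIS both sites lay on the same side.

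Other annotated genes were present at some of the sites. In 47 of the 843 (5.58%) the position lay inside a gene that does not code for protein, in 35 of them a long noncoding RNA gene, and in 117 (13.9%) such a gene lay inside or within 500 bp. The shares were 4.54% and 14.2% at 1 to 500 bp and 6.86% and 12.9% beyond 1500 bp. The position beside AT4G25410 at 841 bp was one of those inside a long noncoding RNA gene. Another reproducible site lay within 2000 bp of 279 of the 843 sites (33.1%), against 28.9% of sites inside genes, 18.9% at 1 to 500 bp and 41.4% beyond 1500 bp.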

How the data were processed

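MACS2 2.1.0, SAMtools, Bowtie 1.1.1 and FastQC 0.11.2 are named, with build TAIR10 and no settings, in the submitters' processing notes. The authors deposited 1 list of peak summits per anti-GFP library, each summit with a −log10 score (lowest value 2.00). The input libraries were not used here. The lists held 8137 and 5492 nuclear summits in ARR12-GFP and 199 and 251 in Col-0. Sites were formed by single linkage within 200 bp (3574 sites, of which 71 lay within 200 bp of a Col-0 summit).

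Genes came from a RefSeq table of assembly TAIR10.1 without strand or sequence, so the sides of a gene are not told apart, and the planned motif and strand shares were not run. Distances assume equal nuclear coordinates: 29.2% of replicate 1 summits lay inside protein-coding genes, and 57.9% and 57.4% did after moves of -2000 and 2000 bp. All 259 list genes were matched. The site of 1 list gene is counted but not reported here. Members and lists were chosen with earlier results of these data known. Named genes are those nearest to the 20 highest-ranked sites, to the distance limits and to 2 sites, and those on the lists; farther neighbours of list genes were added after values were seen. Alternatives were other linking distances, score limits, Col-0 rules, positions, gene sets, windows and left-out libraries. The code was tested on simulated summits. Calculations ran in SciPy 1.17.1 and NumPy 2.4.6 under Python 3.11.15, with tables in pandas 2.3.3 and plots in matplotlib 3.10.9.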

Additional observations from a re-analysis of the deposited data

How the results depend on the processing

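The number of sites was 843 and stayed within 1.5 times of it in 11 of 14 alternatives. It was 474 with summits at or above the median score of their list and 533 with a window from over 750 to 1500 bp. Single ARR12-GFP libraries gave 1149 (replicate 2) and 1882 (replicate 1), and leaving out a library of either genotype gave 843 to 1882. The share of reproducible sites, 24.1%, was 26.2% with the median score limit, 22.6% with distances to any annotated gene, 29.3% with the window extended to 2000 bp, 15.2% with the narrower window, and 21.2% to 24.1% with a library left out. The median score in replicate 1 was 20.5 with summits linked within 100 bp, 28.1 with the median limit, and 11.2 to 19.3 with a library left out. In replicate 2 it was 13.2 with the median limit and 7.99 to 8.95 with a library left out. The share of protein-coding genes that were nearest genes, 2.98%, was 2.37% and 3.28% with linking within 100 and 500 bp, 1.70% with the median limit, 2.43% with any annotated gene, 3.56% and 1.90% with the wider and the narrower window, 3.87% with every gene within 1500 bp, and 2.98% to 6.42% with a library left out. The ratio of summits in the window between genotypes, 48.7, was 73.7 with the median limit, 1.60 as shares of nuclear summits and 37.0 to 60.4 with a library left out.

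Of the 33 sites of list genes, 28 remained with linking within 100 bp, 21 with the median limit, 26 in the narrower window and 32 or 33 in each of the other alternatives that changed the set of sites. The median limit lost the sites of ARR1, ARR20, CRF2, IPT5, AFB2, ARF16, YUC9, TAR1, ACS2 and ACS6. It also lost 1 site each of GID1B and GH3.6. Among those lost with linking within 100 bp were the sites of ACS2, ACS6, ARF16 and UPB1. Of the 20 highest-ranked sites, 17 remained with linking within 100 bp (those of UPB1, RPT2 and 1 of AT4G25410 were lost), 20 with the median limit 17 with any annotated gene and 14 in the narrower window. With removal within 500 bp of Col-0 summits 1 site was lost, that of AT5G48110. With the replicate number as a block, added after seeing the data, exact sign flips of the 2 same-numbered pairs gave p = 0.5 for the ratio of 48.7, the smallest that 2 pairs allow. The labels do not say that a number marks a shared batch, and the other results come from no test. Depth is unknown, so a site missing from the list is not shown to be unbound.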

Other observations

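Beyond the lists, nearest genes were counted by the letters at the start of their symbol, for the 63 such stems that at least 20 nuclear protein-coding genes share. The stems described here were picked after their counts were seen, and no test was made. The median share of nearest genes over stems was 3.03%, and 26 of the 63 stems had none. Of the WRKY transcription factor genes 11 of 67 (16.4%) were nearest to a site in the window, of the GATA factor genes 5 of 22 (22.7%), of the arabinogalactan protein genes (AGP) 5 of 30 (16.7%) and of the genes with an HB symbol, mostly homeobox genes, 6 of 37 (16.2%). Symbols starting with TPS had the highest share of all stems, 5 of 20 (25%), and those starting with ARR had 4 of 21 (19.0%). MYB genes held 8 of 120 (6.67%). Stems with 0 included RLP with 52 genes, SCPL with 49 and ABCG with 42.

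The 11 WRKY sites scored from 10.6 to 83.9 in replicate 1 (median 14.9) and from 6.21 to 60.1 in replicate 2 (median 9.83). WRKY22 was the highest in both. WRKY47 (AT4G01720) followed with 49.0 and 26.1 at 641 bp and WRKY17 (AT2G24570) with 33.7 and 15.8 at 1027 bp, whereas WRKY6, WRKY13 and WRKY18 scored at most 12.0 in replicate 1. The 5 GATA sites had medians of 28.2 and 20.7. GATA9 (AT4G32890) had 59.8 and 25.9 at 503 bp, GATA1 (AT3G24050) 36.4 and 21.4 at 801 bp, and GATA5 (AT5G66320) 20.6 and 20.7 at 1088 bp. The 5 AGP sites lay at 604 bp from AGP2 and from AGP4, 592 bp from AGP20, 571 bp from AGP7 and 718 bp from AGP16. All are in the innermost step of 250 bp, which held 36.8% of all sites of the window. AGP16 (AT2G46330) had the highest scores of these, 39.6 and 21.1, and AGP20 (AT3G61640) the lowest, 7.41 and 9.64.

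In the Col-0 libraries 11 of the 27 replicate 1 summits and 15 of the 36 replicate 2 summits of the window lay over 600 and up to 700 bp from a gene. The other bins of 100 bp in the window each held at most 5 summits in either Col-0 library. This bin was singled out after its values were seen, and the cause was not tested.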
